A study of Zea mays with 6 samples.

Results

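The genes described are 10 maize (Zea mays) genes of flavonoid and anthocyanin synthesis among the 45855 genes in the deposited tables, picked out by a fixed list of gene IDs of the pathway. The rule uses no measured value, but the list was drawn up with earlier results of these data known. They are 8 enzyme genes and 2 regulator genes. The names were given with the IDs, and no table used here pairs a name with an ID of this annotation. RNA sequencing was run on polyadenylated RNA of whole seedlings at the coleoptile stage, with 3 wild-type samples and 3 homozygous mutants labelled Fdl1-/-, described by the submitters as biological replicates. The gene fused leaves1 (FDL1) codes for a MYB protein that is known to act in the formation of the seedling cuticle and in keeping young leaves free of each other. The labels name neither the lesion of the mutant allele nor the inbred background of either genotype, and no treatment is given. The comparison asks how expression differed between seedlings of these genotypes.

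Flavonoids are built from a phenylpropanoid precursor and malonyl units. Chalcone synthase makes the chalcone, chalcone isomerase closes its ring to a flavanone, and hydroxylases then decorate the product. A reductase, a dioxygenase and a glucosyltransferase turn dihydroflavonols into anthocyanins, the red and purple pigments of maize seedlings and kernels. In maize the enzyme genes of anthocyanin synthesis are known to be switched on together by a bHLH protein of the R/B family acting with a MYB protein of the C1/Pl family.

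Library totals ran from 26807205 to 36123679 expected counts, and 31936 to 32705 genes had a count in a library. Wild-type replicate 1 had the lowest mean Pearson correlation of log-CPM across genes with the other libraries of its genotype, at 0.944. This mean was 0.962 and 0.956 for wild-type replicates 2 and 3, where it includes replicate 1. It was 0.974 to 0.977 for the mutant libraries. The ID taken for FDL1 was recalled from published work and is paired with the name by no table used here. It had 4.11, 3.35 and 4.84 TPM in wild-type replicates 1, 2 and 3 and 3.99, 3.40 and 3.40 TPM in mutant replicates 1, 2 and 3, so its level did not separate the genotypes (log2 fold change -0.28, SE 0.23, edgeR adjusted p 0.651). The mean transcript length that RSEM gave for this ID did not overlap between them. This length was 1621, 1607 and 1610 nt in the wild-type libraries and 1542, 1542 and 1554 nt in the mutant libraries. It was not tested, and the share of other genes with separate lengths was not computed, so it is no check of the genotype labels. TPM, the abundance unit of the deposited tables, is scaled to transcript length and library total, so levels of different genes can be set side by side. The seedling tissue could not be checked against marker genes, since the symbol table used here matched 0 of the 43789 gene IDs beginning Zm00001d. In whole seedlings, fewer cells of a type and less RNA per cell cannot be told apart.

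None of the 10 genes passed the threshold for a difference between Fdl1-/- and wild type. The quasi-likelihood test of edgeR called 0 of 10 at a Benjamini-Hochberg adjusted p under 0.05, where it called 2.68% of the 26098 tested genes, 1.68% as higher and 0.996% as lower in the mutant. All 10 genes had enough counts to be tested. At an unadjusted p under 0.05 there were 5 of the 10, against 15.8% of tested genes, and these were whp1, fht1, pr1, a2 and r1, each with a higher estimate in the mutant. DESeq2 called 2 as higher, fht1 (adjusted p 0.00619) and whp1 (adjusted p 0.0499), where it called 3.73% of genes as higher. Neither limma-voom nor limma on log2(TPM + 1) or log2(TPM + 0.1) called any of the 10. The log2 fold change was above 0 for 6 of the 10, against 45.2% of tested genes, and above 1 for 4 of the 10, against 5.31%. Without wild-type replicate 1, the library with the lowest correlation within its genotype, edgeR also called 0 of the 10. The estimates were then 2.18 for whp1, 1.24 for pr1, 0.65 for r1, 0.16 for c2, -0.099 for a1 and 0.056 for pl1. Those of the other members are given with each gene. The median log2 fold change was 0.45 over the 10 genes and -0.033 over all tested genes.

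Libraries of the genotypes did not overlap for 5 of the 10 genes on the CPM scale (counts scaled to a common library size after TMM normalization), each with every mutant library above every wild-type library. Among all tested genes 21.9% did not overlap, 10.7% in that direction and 11.2% in the other. On the TPM scale 4 of the 10 did not overlap, where 20.3% of tested genes did not overlap and 11.1% lay wholly higher in the mutant, and r1 was the gene that overlapped. The plot of TPM by library shows the values of all 10 genes.

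**Figure D1:**
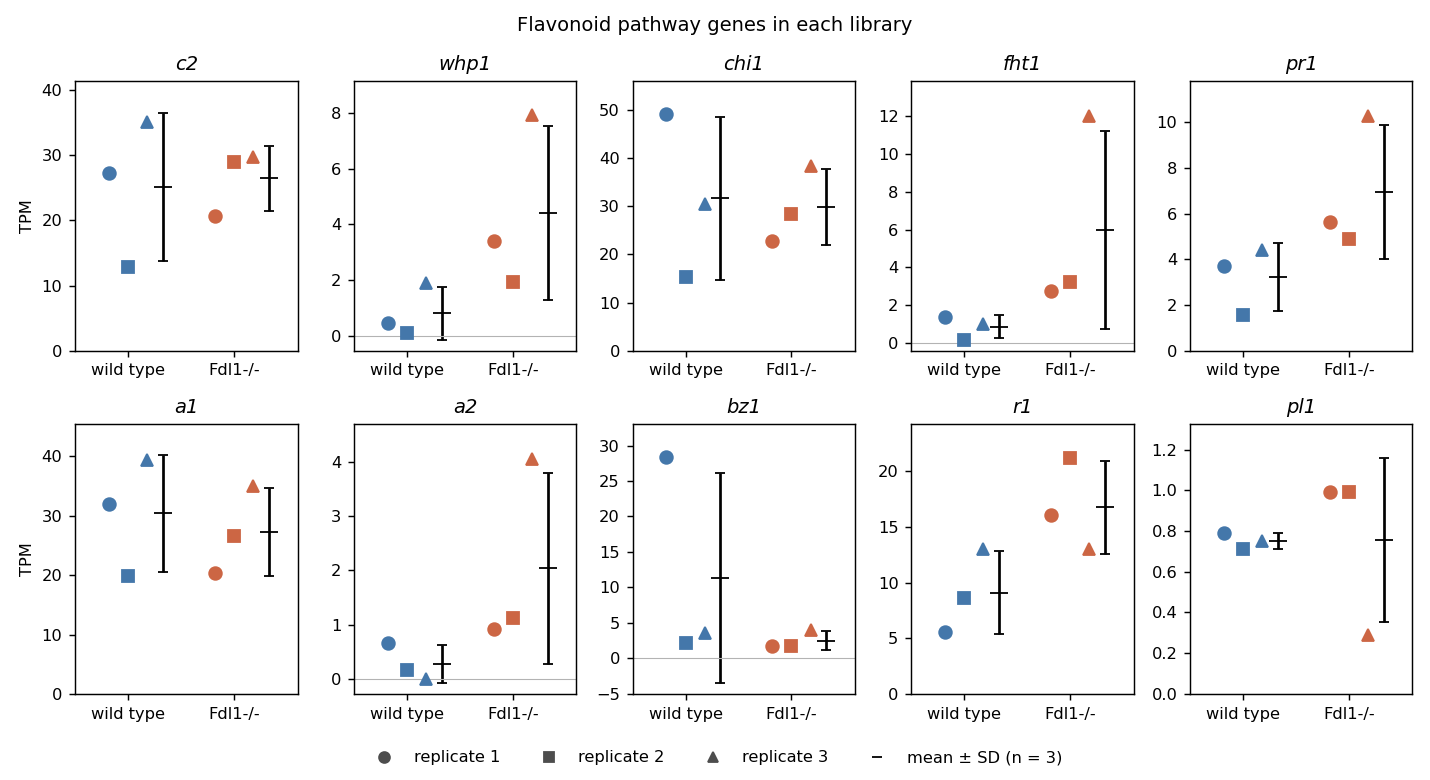
TPM (y axis, linear, a different scale in each panel) of the 8 enzyme and 2 regulator genes in 3 wild-type (blue) and 3 Fdl1-/- (orange) libraries, with marker shape for the replicate number and a black bar for the mean ± SD (n = 3). Mutant replicate 3 is the highest library for whp1, fht1, pr1 and a2, and wild-type replicate 1 reaches 28.4 TPM for bz1 where the other 5 libraries lie between 1.67 and 4.01.

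Of the regulators, r1 (Zm00001d026147) encodes the bHLH protein, and its estimate was 1.83-fold higher in the mutant. It had 5.60, 8.62 and 13.0 TPM in wild-type replicates 1, 2 and 3 and 16.1, 21.2 and 13.0 TPM in mutant replicates 1, 2 and 3. Wild-type replicate 3 and mutant replicate 3 were level, and the other mutant libraries lay above all wild-type ones. On the CPM scale the same libraries stood at 21.2 and 21.6, just apart. On the log2 scale the difference was 0.87 (SE 0.30, 95% interval 0.18 to 1.57), and edgeR gave an adjusted p of 0.202. It ran from 0.65 to 1.18 when any 1 library was left out, with adjusted p values of 0.0802 to 0.527. Every expected count of r1 was whole, so its level shows no sign of reads divided with another gene.

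The MYB regulator pl1 (Zm00001d037118) was near the lower end of what was tested, with 7 to 25 expected counts in a library. It had 0.79, 0.71 and 0.75 TPM in wild-type replicates 1, 2 and 3 and 0.99, 0.99 and 0.29 TPM in mutant replicates 1, 2 and 3. The mutant libraries lay on both sides of the wild-type ones. Its estimate was -0.027 on the log2 scale (SE 0.53), and the 95% interval of -1.27 to 1.22 leaves room for a change of more than 2-fold either way (edgeR, adjusted p 0.990).

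Of the chalcone synthase genes, c2 (Zm00001d052673) made up most of the transcripts and did not differ detectably, while the estimate for whp1 (Zm00001d007403) was 5.39-fold higher in the mutant. The c2 gene had 27.4, 12.9 and 35.2 TPM in wild-type replicates 1, 2 and 3 and 20.7, 28.9 and 29.7 TPM in mutant replicates 1, 2 and 3. The mutant values lay inside the wild-type range. Between genotypes c2 differed by 0.037 on the log2 scale (SE 0.34, 95% interval -0.76 to 0.84, edgeR adjusted p 0.978).

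The whp1 gene had 0.44, 0.11 and 1.90 TPM in the wild-type libraries and 3.42, 1.92 and 7.92 TPM in the mutant libraries, each in replicate order. Wild-type replicate 3 almost met mutant replicate 2, and mutant replicate 3 was the highest of all. For whp1 edgeR estimated a log2 fold change of 2.43 (SE 0.95, 95% interval 0.20 to 4.65, adjusted p 0.270), which was 1.71 (adjusted p 0.581) without mutant replicate 3. Wild-type replicate 2 rested on 4.40 expected counts of whp1, so its level there is poorly fixed.

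The expected counts of c2 and whp1 were fractional in every library, up to 0.5 from a whole number, so reads were divided between these or other similar genes and the split between them is uncertain. The share of their summed TPM taken by c2 was 98.4%, 99.2% and 94.9% in the wild-type libraries and 85.8%, 93.8% and 79.0% in the mutant libraries. All mutant shares lay below all wild-type shares, with means of 97.5% ± 2.29 and 86.2% ± 7.41 (SD, n = 3, two-sided exact permutation p = 0.1, the smallest that 3 against 3 samples allow). With the counts of both genes summed into 1 feature, chalcone synthase differed by 0.19 on the log2 scale (SE 0.35, 95% interval -0.63 to 1.02, edgeR adjusted p 0.872).

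Chalcone isomerase, encoded by chi1 (Zm00001d034635), was the most abundant member by mean TPM and varied widely among wild-type libraries. It had 49.2, 15.3 and 30.5 TPM in wild-type replicates 1, 2 and 3 and 22.7, 28.3 and 38.3 TPM in mutant replicates 1, 2 and 3. The mutant libraries fell within the wild-type range. The log2 fold change of -0.17 (SE 0.43, 95% interval -1.17 to 0.83, edgeR adjusted p 0.913) turned to 0.38 without wild-type replicate 1.

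Flavanone 3-hydroxylase, encoded by fht1 (Zm00001d001960), makes the dihydroflavonols that feed both flavonols and anthocyanins, and had the lowest adjusted p of the 10 genes. It had 1.37, 0.20 and 1.04 TPM in wild-type replicates 1, 2 and 3 and 2.74, 3.22 and 12.0 TPM in mutant replicates 1, 2 and 3. Every mutant library was above the highest wild-type library, and mutant replicate 3 was 3.82 times the next highest library on the CPM scale. The counts behind these values were 41, 8 and 30 in wild type and 73, 107 and 390 in the mutant, all whole. In edgeR the log2 estimate of fht1 was 2.67 (SE 0.83, 95% interval 0.72 to 4.62, adjusted p 0.166). Without mutant replicate 3 it was 1.64, and without wild-type replicate 1 it was 3.33. Leaving out any 1 library gave adjusted p values of 0.129 to 0.415 for fht1 in edgeR. DESeq2 was not rerun with a library left out, so these fits do not bear on its call.

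The pr1 gene (Zm00001d017077) encodes flavonoid 3'-hydroxylase, which adds the hydroxyl group that separates purple cyanidin pigments from red pelargonidin ones. It had 3.70, 1.55 and 4.41 TPM in the wild-type libraries and 5.61, 4.88 and 10.3 TPM in the mutant libraries, in replicate order. Wild-type replicate 3 and mutant replicate 2 were close, and mutant replicate 3 again stood highest. The estimated difference was 1.07 on the log2 scale (SE 0.44, 95% interval 0.025 to 2.11, edgeR adjusted p 0.304). Its expected counts were fractional in every library.

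Dihydroflavonol 4-reductase, encoded by a1 (Zm00001d044122), is the entry to the anthocyanin branch and was expressed at a level close to that of chi1 and c2. It had 32.1, 19.8 and 39.3 TPM in wild-type replicates 1, 2 and 3 and 20.3, 26.6 and 35.0 TPM in mutant replicates 1, 2 and 3. The groups covered nearly the same range. Its log2 fold change of -0.19 (SE 0.28, 95% interval -0.85 to 0.47, edgeR adjusted p 0.836) had an interval that holds no change of 2-fold in either direction.

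The a2 gene (Zm00001d014914) encodes anthocyanidin synthase, a dioxygenase that acts after a1, and was the least abundant enzyme gene. It had 0.66, 0.15 and 0 TPM in wild-type replicates 1, 2 and 3 and 0.92, 1.13 and 4.07 TPM in mutant replicates 1, 2 and 3. Wild-type replicate 3 held no count of a2, where a floor of 3 counts corresponds to 0.0903 CPM. The expected counts were 15.8, 4.38 and 0 in wild type and 22.1, 34.0 and 115 in the mutant, fractional in every library with a count. Fitted over all 6 libraries, a2 gave 2.87 (SE 1.15, 95% interval 0.15 to 5.58, edgeR adjusted p 0.287) on the log2 scale, and it ran from 1.88 without mutant replicate 3 to 4.79 without wild-type replicate 1.

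The glucosyltransferase gene bz1 (Zm00001d045055), whose product stabilises anthocyanidins by adding glucose, was the 1 enzyme gene with a large estimate in the other direction, and 1 library set it. It had 28.4, 2.07 and 3.55 TPM in wild-type replicates 1, 2 and 3 and 1.67, 1.70 and 4.01 TPM in mutant replicates 1, 2 and 3. Wild-type replicate 1 was 7.84 times the next highest library on the CPM scale, with 881 whole counts, and the other 5 libraries overlapped. With all libraries bz1 gave a log2 fold change of -2.31 (SE 1.02, 95% interval -4.70 to 0.087, edgeR adjusted p 0.338), and it gave -0.18 (adjusted p 0.881) without wild-type replicate 1. In that library 1.08% of tested genes, 283 in number, were at least 4-fold above every other library, against 0 to 10 genes in each of the other 5. No other member stood 4-fold above all other libraries in any library. The plot of fold changes shows the estimate without each library in turn.

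**Figure D2:**
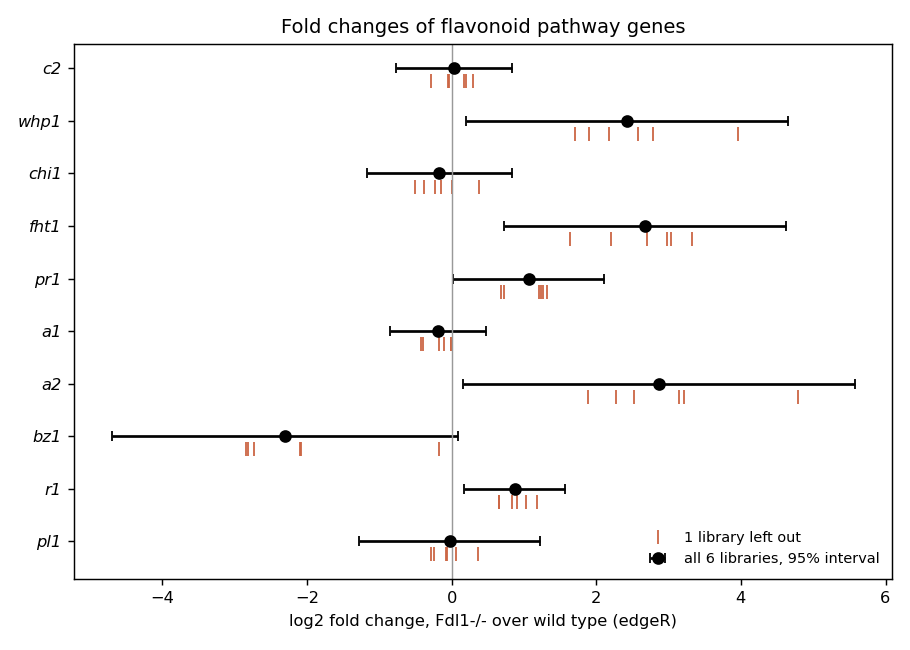
Log2 fold change of each gene in Fdl1-/- over wild type (x axis), with black points and bars for the edgeR estimate from all 6 libraries and its 95% interval, and orange ticks for the estimate with 1 library left out. The intervals of whp1, fht1, pr1, a2 and r1 lie above 0 before adjustment for the number of genes tested, and the bz1 estimate moves from -2.31 to -0.18 in 1 of its 6 ticks.

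The order of the levels was led in both genotypes by chi1, a1 and c2. Their mean TPM was 31.6, 30.4 and 25.1 in wild type and 29.8, 27.3 and 26.5 in the mutant, and their ranges overlapped. In wild type bz1 and r1 followed at 11.3 and 9.08 TPM, then pr1 at 3.22, fht1 at 0.870, whp1 at 0.817, pl1 at 0.750 and a2 at 0.270. Among these neighbours r1 lay wholly above pr1, pr1 above fht1, and pl1 above a2, while the other neighbouring ranges overlapped. The place of bz1 in wild type rested on replicate 1, at 28.4 TPM, where replicates 2 and 3 had 2.07 and 3.55 TPM. In the mutant r1 followed c2 at 16.8 TPM, with pr1 next at 6.93, fht1 at 5.98, whp1 at 4.42, bz1 at 2.46, a2 at 2.04 and pl1 at 0.757. Only r1 and pr1 were neighbours with separate ranges there.

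Summed over the 8 enzyme genes, the ranges of the genotypes overlapped, with a wider spread in wild type. The sum was 143, 52.1 and 116 TPM in wild-type replicates 1, 2 and 3 and 78.1, 96.8 and 141 TPM in mutant replicates 1, 2 and 3. The means were 104 ± 46.7 TPM in wild type and 105 ± 32.5 TPM in the mutant, and without bz1 they were 92.4 ± 36.7 and 103 ± 31.2 TPM (SD, n = 3). The genes c2, chi1 and a1 together gave 87.2 ± 34.0 TPM in wild type and 83.6 ± 19.7 TPM in the mutant (SD, n = 3). The genes whp1, fht1, pr1 and a2, grouped after their values were seen, took 4.31%, 3.86% and 6.34% of the enzyme sum in the wild-type libraries and 16.3%, 11.5% and 24.2% in the mutant libraries. These shares describe genes picked for their difference and were not tested. The bar chart of summed TPM shows the makeup and the total of each library.

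**Figure D3:**
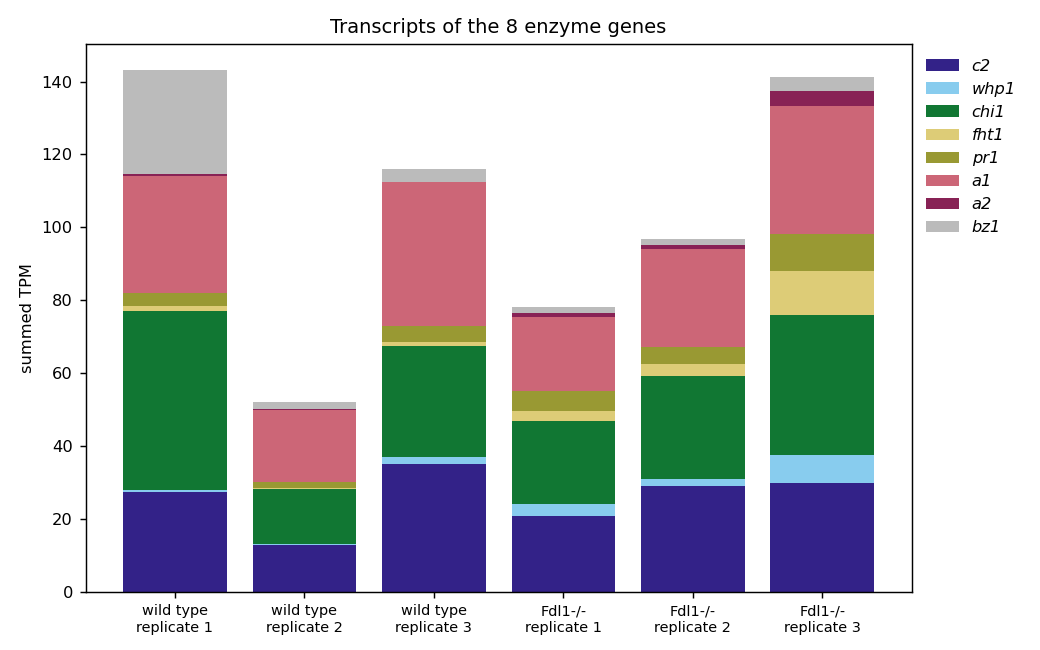
Summed TPM of the 8 enzyme genes (y axis) in each of the 6 libraries (x axis), stacked by gene. The totals run from 52.1 to 143 TPM in wild type and from 78.1 to 141 TPM in Fdl1-/-, bz1 takes 19.9% of the total in wild-type replicate 1 and 1.76% to 3.97% elsewhere, and whp1, fht1, pr1 and a2 are thicker bands in the mutant.

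Enzyme genes shared part of the order of the libraries within a genotype, a pattern picked out after the values were seen. Wild-type replicate 2 was the lowest wild-type library for 7 of the 8 enzyme genes on the CPM scale, with a2 the exception, where 31.0% of tested genes were lowest in that library among the wild type. Mutant replicate 3 was the highest mutant library for 8 of the 8, where 37.6% of tested genes were. The highest wild-type library was replicate 1 for chi1, fht1, a2 and bz1 and replicate 3 for c2, whp1, pr1 and a1. The lowest mutant library was replicate 2 for whp1 and pr1 and replicate 1 for the other 6. Against the mean of the other mutant libraries, mutant replicate 3 was 4.13 times higher for fht1, 3.92 times for a2 and 2.93 times for whp1, but 1.20 times for c2. Of the regulators, r1 was not lowest in wild-type replicate 2 among the wild type. The pl1 gene stood at 0.609, 0.51 and 0.512 CPM in wild-type replicates 1, 2 and 3, so replicates 2 and 3 were nearly level. In mutant replicate 3 r1 stood at 0.685 times and pl1 at 0.294 times the mean of the other mutant libraries. Members share libraries, so these counts describe 6 libraries and not 8 independent observations.

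The spread between replicates was wide for most members. The biological coefficient of variation, edgeR's estimate of the spread of a gene between replicates beyond counting error, had a median of 23.0% over all tested genes and was above that for 10 of the 10. It was 91.1% for a2, 78.0% for bz1, 76.4% for whp1 and 66.1% for fht1, and 96.5% or more of tested genes lay below each of these. For r1 and a1 it was 26.7% and 25.5%. The shares are over genes of all abundances, and spread was larger for genes of low abundance. For bz1, wild-type replicate 1 was 7.84 times the next highest library on the CPM scale. The estimates of whp1, fht1 and a2 were 5.39-fold, 6.38-fold and 7.30-fold and did not pass the edgeR threshold.

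**Figure D4:**
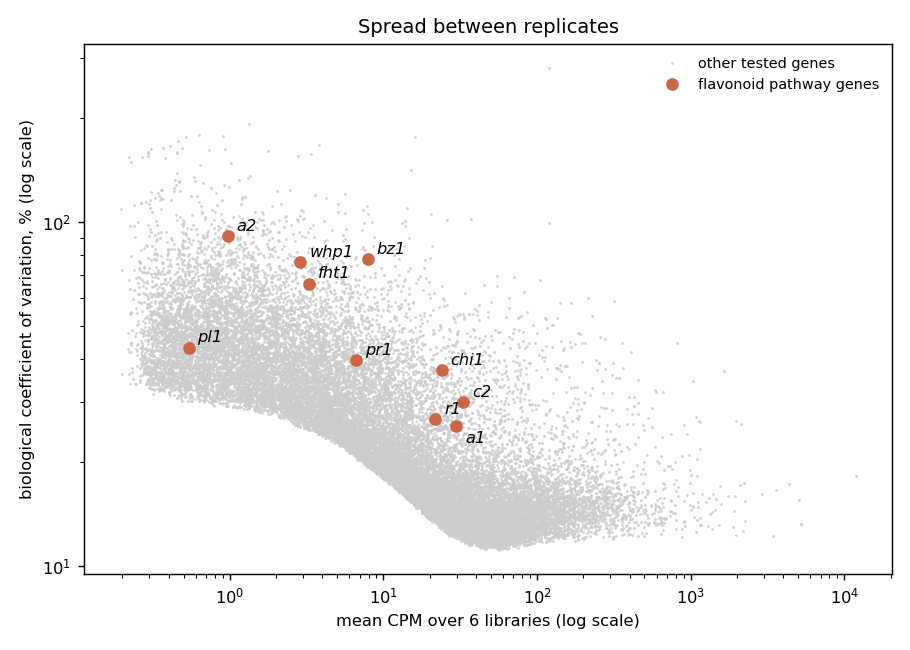
Biological coefficient of variation in percent (y axis, log scale) against mean CPM over 6 libraries (x axis, log scale) for all 26098 tested genes (grey) and the 10 flavonoid pathway genes (orange). The cloud of tested genes falls with abundance, and a2, whp1, fht1 and bz1 lie in its upper part at 66.1% to 91.1%.

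For 4 members the annotation lists several transcripts, and the deposited tables give the mean length that RSEM weights by the estimated shares of those transcripts. For chi1, with 2 transcripts, this length was 1100, 1087 and 1100 nt in the wild-type libraries and 1070, 1084 and 1086 nt in the mutant libraries. All mutant values lay below all wild-type ones, with means of 1096 ± 7.25 and 1080 ± 8.48 nt (SD, n = 3, two-sided exact permutation p = 0.1, the smallest possible). For c2, fht1 and r1 the ranges overlapped, with exact permutation p values of 0.6, 0.4 and 0.4. The 4 lengths of members were compared as a family, and no adjusted p can pass at this sample size. The share of all genes with several transcripts whose lengths separate the genotypes was not computed. The chi1 lengths therefore cannot be set against an ordinary rate.

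Expected counts were whole, within 0.005, in all 6 libraries for fht1, bz1 and r1, as for 31.7% of tested genes. They were within 0.08 of whole for a1 and within 0.2 for pl1. They were further off for c2, whp1, chi1, pr1 and a2, whose levels are uncertain to the extent that reads were divided between similar genes. The genes with separated genotypes in TPM thus include fht1, with whole counts, and whp1, pr1 and a2, with fractional ones.

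The expression profile of chi1, the member with the highest mean TPM, was compared with those of all other tested genes across the 6 libraries. The most similar genes outside the pathway list were Zm00001d006016, with a Pearson correlation of log-CPM of 0.998, and Zm00001d034461, with 0.997. They are the highest values among all tested genes over 6 libraries, so no p is given. The files give no description of either gene. Other genes of the pathway could not be placed, since their symbols are paired with no ID of this annotation by the table used here.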

How the data were processed

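The authors deposited 1 RSEM table per library with an expected count, TPM, length and effective length for each gene, per the file headers. The submitters' processing notes name Bowtie2, RSEM, DESeq2 and limma and the build B73 RefGen_v4, without versions or roles. Kits were PureLink for the RNA and stranded TruSeq for the mRNA libraries, per the labels' protocols. Expected counts are estimates that divide shared reads between genes. The TPM values were deposited by the authors and used as they are for levels.

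Expected counts were rounded and fitted over all genes in R 4.3.3 with edgeR 4.0.16 (filterByExpr with a minimum count of 10 and a minimum total of 15, TMM scaling, quasi-likelihood test, two-sided, Benjamini-Hochberg at 0.05, genotype only). Standard errors are the absolute log2 fold change divided by the square root of F. Log-CPM used a prior count of 2. The fit was tested on simulated counts with changes placed only in genes of higher counts, so members as low as a2 and pl1 were not covered. Intervals of fold changes are at 95%, and floors of 3 counts cover counting error only. Alternatives used DESeq2 1.42.0, limma 3.58.1, other scalings and filters, effective length as offset, a replicate block, summed counts of c2 and whp1, and leaving out each library.

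The members were found by gene ID, with no measured value in the rule, and the members and lists were chosen with earlier results of these data known. All 10 members are named, with FDL1 and the 2 genes most like the most abundant member. A list of other pathway genes and one of tissue markers had symbols only, and 0 of their IDs could be matched, so they were not run. Coordinates and sequences of the members were not used here.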

Additional observations from a re-analysis of the deposited data

How the results depend on the processing

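The estimates of whp1, fht1, pr1, a1, a2, bz1 and r1 kept their sign under every alternative run. That of a1 came as near to 0 as -0.0029, without wild-type replicate 3. Of 170 member values 10 reversed, all for c2, chi1 and pl1, whose estimates also lie near 0. For c2 and whp1 these values include the fit of their summed counts, at 0.19. That sum was mostly c2, so its sign gives no separate estimate of whp1. In DESeq2 fht1 (2.68) and whp1 (2.44, adjusted p 0.0499) passed the threshold, so the count of members called higher was 2 there and 0 in every other fit, and the count called lower was 0 throughout. The log2 fold change of chi1 was 0.033 in limma-voom and 0.029 and 0.034 in limma on log2(TPM + 1) and log2(TPM + 0.1). When 1 library was left out, estimates ran from -0.28 to 0.30 for c2, -0.51 to 0.38 for chi1 and -0.28 to 0.36 for pl1. They ran from 1.71 to 3.96 for whp1, 1.64 to 3.33 for fht1, 0.68 to 1.32 for pr1, 1.88 to 4.79 for a2 and -2.84 to -0.18 for bz1. The value of bz1 was also -1.28 with a replicate block, -1.24 in limma-voom and -1.17 in limma on log2(TPM + 1). Over all genes 699 passed in edgeR, 1983 in DESeq2 and 122 with the replicate block. That count was 149 without wild-type replicate 2, 128 without mutant replicate 1, 184 without mutant replicate 2 and 193 without mutant replicate 3, in a range of 128 to 837 over the 6 libraries left out. The causes were not tested. Deviations from the group means correlated at -0.22, 0.13 and -0.18 between samples of the same number, so the numbers were not taken to pair samples, and with the replicate block 0 members were called. A filter of 1 CPM in 3 libraries left 8 of the 10 members, dropping a2 and pl1. Depth limits the low genes, with 4 to 68 rounded counts of whp1 and 0 to 16 of a2 in wild-type libraries.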
